A study of Ovis aries with 10 samples.

Results

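The release of neurotransmitter from synaptic vesicles was followed through 36 genes of the presynaptic terminal: 3 complexins, 6 SNARE proteins and proteins that take SNARE complexes apart, 4 priming factors, 7 calcium sensors and Rab effectors, 8 proteins of the vesicle and 8 scaffolds of the active zone. They were chosen by gene symbol from a count table of 33775 genes, with earlier results of these data known. Of the 36, 35 were found under their own symbol, and synaptophysin, listed there as LOC101112034, was found by its gene identifier, which RefSeq names SYP. All 36 passed the filter on low counts, with between 156 reads (SYT2, follicular library 3) and 26679 reads (VAMP2, luteal library 1) in a library, and they took 0.387% to 0.457% of a library's reads.

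The samples were mediobasal hypothalamus of adult Ile-de-France ewes, the ventral part of the hypothalamus, with the arcuate nucleus and the median eminence in it. The 2 groups were the follicular phase of the ovarian cycle, before ovulation, and the luteal phase, when the corpus luteum secretes progesterone. The title of the study asks what progesterone does to the transcriptome of this region. Each phase had 10 ewes, whose RNA was combined at random into 5 mixes of 2 ewes, and each mix gave 1 library, so that n is 5 per phase and no library shows a single animal. The labels name no treatment and no genotype, and both groups share breed, sex and tissue. Markers of the arcuate nucleus were present in every library. Over the libraries POMC ran from 404.6 to 1371 CPM, TAC3 from 201.5 to 314.8 and NPY from 66.4 to 220. AGRP ran from 28.0 to 303.3 CPM, GHRH from 16.7 to 72.1 and KISS1 from 9.04 to 44.2, so the levels differed widely between libraries. Summed markers of cortical or hippocampal neurons were at most 2.59 CPM in any library. CPM is the usual scaling of read counts by library size, here with TMM factors, and it is used to compare libraries for 1 gene, never levels between genes, since genes differ in length. The spread between libraries holds animal and technical variation together, which cannot be told apart here.

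A nerve terminal releases transmitter when a vesicle protein of the VAMP family winds together with syntaxin and SNAP25 of the plasma membrane and pulls the membranes into contact. Munc13 proteins and active zone scaffolds bring vesicles to that point, complexins bind the part-assembled SNARE complex, and synaptotagmins trigger fusion when calcium enters. In the mediobasal hypothalamus the same machinery serves fast synapses and the neurosecretory terminals of the median eminence, and neuropeptides leave from dense-core vesicles that use many of the same proteins. The genome build of the counts was not given in the sources used here, so no coordinates are printed.

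Library totals ran from 20644992 to 43193449 reads. The share of reads on 74 cytosolic ribosomal protein genes, a measure of RNA make-up, was 9.08%, 6.01%, 9.07%, 7.97% and 4.63% in follicular libraries 1 to 5 and 6.58%, 5.70%, 5.13%, 6.97% and 4.79% in luteal libraries 1 to 5 (exact permutation test of the means, p = 0.159, n = 5 per phase; adjusted over 3 library measures, p = 0.159). Without follicular 5 all 3 library measures (total reads, genes detected and this share) differed between phases (adjusted p under 0.05 by exact permutation test). Total reads and genes detected were then lower in the follicular phase, and the share was higher there. Non-synaptic neuronal markers summed to 4082 to 5371 CPM in follicular and 3677 to 5381 CPM in luteal libraries, and 10 of the 15 had a fitted value lower in luteal libraries. The median log2 fold change of these 15 was -0.16, and at an unadjusted edgeR p under 0.05, 2 were lower and 0 higher. All 74 ribosomal protein genes had a fitted value below 0 (median log2 fold change -0.49, 19 at an unadjusted edgeR p under 0.05). Of all genes tested, 48.5% had a fitted value below 0, and 7.12% were lower at such a p. All 7 choroid plexus markers tested had one above 0, with a summed level of 21.2 to 58.2 CPM in follicular and 35.2 to 116.6 CPM in luteal libraries, and 9 of 11 oligodendrocyte markers had one below 0. Of 5 pituitary (pars tuberalis) markers tested, 4 had one below 0 and 1 above, and 1 was lower at an unadjusted edgeR p under 0.05. Their summed level was 2548 to 3593 CPM in follicular and 1618 to 3025 CPM in luteal libraries. No marker of any of these lists passed after adjustment, and the part of these shifts in the results below was not tested beyond fits with the ribosomal share, or with the first principal component of all genes (51.0% of the variance), as a covariate. In bulk tissue, fewer neurons and less RNA per neuron cannot be told apart, and this holds for all values below.

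No presynaptic gene passed the test of luteal against follicular phase after adjustment over the 18276 genes tested (edgeR quasi-likelihood test with Benjamini-Hochberg adjustment, adjusted p from 0.426 to 0.955 over the 36). In that comparison 0% of all genes passed. The result depended on the tool: DESeq2 called 2 of the 36, CPLX2 and TSPOAP1 (0.227% of all genes with an adjusted p), limma-voom called 0, and limma-voom with sample quality weights called 8 lower and 5 higher (16.8% and 15.3% of all genes). At an unadjusted p under 0.05, 7 of the 36 (19.4%) were lower in luteal libraries, against 7.12% of all genes tested, and 1 (2.78%) was higher, against 4.27%. The 7 were all 3 complexins, the synaptotagmin SYT5, the Rab effector RPH3A, synaptophysin and the Munc13 protein UNC13A, and the 1 was the scaffold TSPOAP1. Over the 36 genes 22 had a fitted value below 0 (61.1%, against 48.5% of all genes), and the median log2 fold change of luteal over follicular was -0.06, against 0.01 over all genes. Since the 36 were chosen with earlier results of these data known, these contrasts with all genes are no independent test of release genes. The luteal libraries lay wholly below the follicular ones for CPLX2, and wholly above for TSPOAP1, which makes 1 of 36 in each direction against 0.514% and 0.607% of all genes. For those 2 genes the fitted difference was larger than the range within either phase, and for the other 34 it was smaller than the range within at least one phase.

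**Figure D1:**
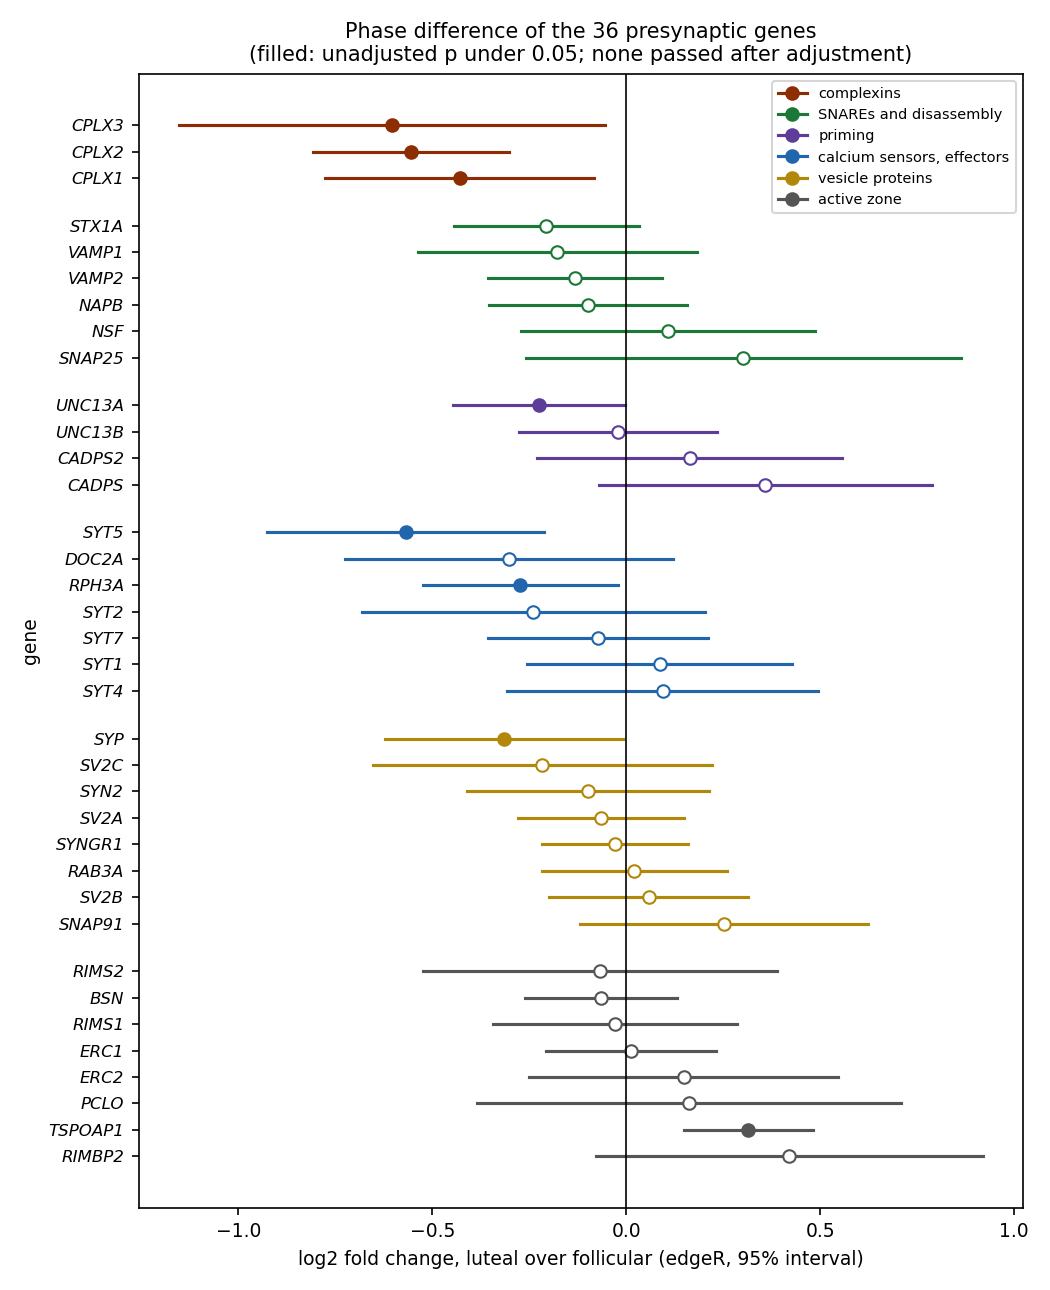
Log2 fold change of luteal over follicular phase for each of the 36 genes, grouped by role, with the 95% interval of the edgeR fit as a line; filled points had an unadjusted p under 0.05. The 3 complexins sit between -0.60 and -0.43, the intervals of 28 of the 36 genes include 0, and no gene passed after adjustment.

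All 3 complexins averaged lower in luteal libraries. Complexins are small cytosolic proteins that bind the SNARE complex and hold vesicles in a state ready for calcium. CPLX2, complexin 2 (gene identifier 101108392), measured 227, 256, 221, 245 and 189.6 CPM in follicular libraries 1 to 5 and 158, 153, 142, 188 and 134 CPM in luteal libraries 1 to 5. Every luteal value lay below every follicular value, with follicular 5 and luteal 4 nearly touching. The means were 228 ± 25.5 CPM over the follicular mixes and 155 ± 20.9 CPM over the luteal mixes (± SD, 5 mixes each; fitted log2 fold change -0.56, SE 0.12, 95% interval -0.81 to -0.30, edgeR unadjusted p = 0.000468; adjusted p = 0.426), a fitted change of -31.9% in luteal libraries. The DESeq2 adjusted p was 0.0137.

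CPLX1, complexin 1 (gene identifier 101111194), widespread in inhibitory and brainstem neurons, measured 157, 133, 154, 152 and 95.1 CPM in follicular libraries 1 to 5 and 121, 98.2, 88.7, 122 and 83.2 CPM in luteal libraries 1 to 5. Follicular 1, 2, 3 and 4 lay above all luteal libraries, and follicular 5 fell among the lower luteal values. The means were 138 ± 26.1 CPM over the follicular mixes and 103 ± 18.1 CPM over the luteal mixes (± SD, 5 mixes each; fitted log2 fold change -0.43, SE 0.16, 95% interval -0.78 to -0.08, edgeR unadjusted p = 0.0193; adjusted p = 0.426). CPLX3, complexin 3 (gene identifier 101108426), known from ribbon synapses of the retina, measured 25.8, 39.0, 35.7, 36.2 and 52.9 CPM in follicular libraries 1 to 5 and 18.8, 19.1, 17.1, 39.1 and 30.7 CPM in luteal libraries 1 to 5. Here follicular 5 was the highest library of all, luteal 1, 2 and 3 were the lowest, and luteal 4 exceeded 4 of the 5 follicular libraries. The means were 37.9 ± 9.77 CPM over the follicular mixes and 25.0 ± 9.57 CPM over the luteal mixes (± SD, 5 mixes each; fitted log2 fold change -0.60, SE 0.25, 95% interval -1.15 to -0.06, edgeR unadjusted p = 0.0336; adjusted p = 0.426). CPLX4, which belongs to the family but not to the 36, had 0 to 8 reads in a library and was below the filter.

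**Figure D2:**
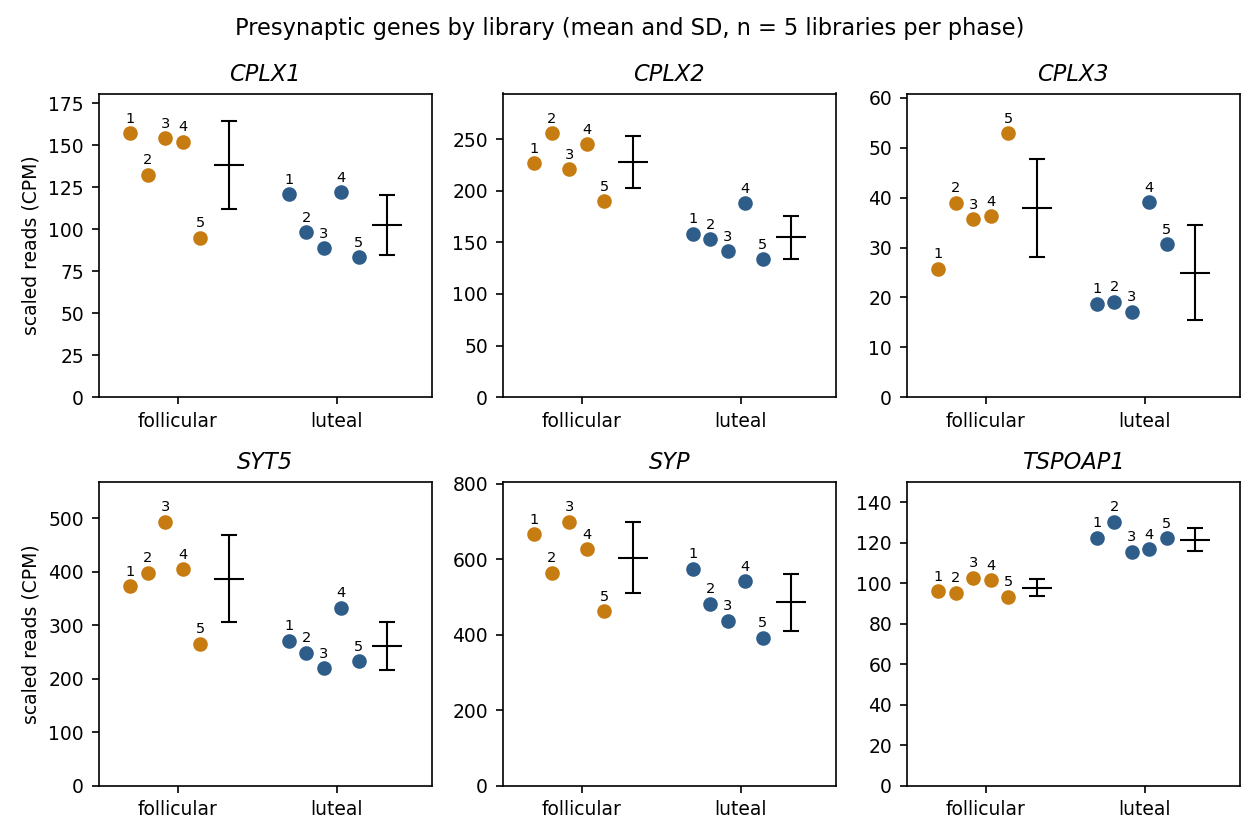
Scaled reads (CPM, linear axis from 0) of the 3 complexins, SYT5, SYP and TSPOAP1 in each library; numbers give the library within its phase, and the bar beside each group is the mean with its SD. Follicular 5 lies at or near the luteal values for CPLX1, SYT5 and SYP but is the highest library for CPLX3, and TSPOAP1 separates the phases without overlap.

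Without each library in turn the log2 fold change of CPLX2 ran from -0.63 to -0.50, of CPLX1 from -0.54 to -0.36 and of CPLX3 from -0.83 to -0.45. The unadjusted p of CPLX1 and CPLX2 remained under 0.05 whichever single library was left out. That of CPLX3 was not under 0.05 without follicular 2, follicular 5, luteal 1, luteal 2 or luteal 3. With the ribosomal protein share as a covariate the log2 fold change was -0.47 for CPLX2 (adjusted p = 0.281), -0.69 for CPLX3 (adjusted p = 0.487) and -0.19 for CPLX1 (adjusted p = 0.536), and with the first principal component that of CPLX1 was -0.13 (adjusted p = 0.650). The value of CPLX1 thus moved by more than 1.5 times under both, and its unadjusted p was not under 0.05 with the first principal component or without follicular 1 and 3 together. All fits in this paragraph were edgeR quasi-likelihood fits.

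Of the 6 SNARE and disassembly genes 4 averaged lower and 2 higher in luteal libraries, and none had an unadjusted p under 0.05. SNAP25 and STX1A encode the plasma membrane partners of the complex, VAMP1 and VAMP2 the vesicle partner, and NSF with its adaptor NAPB separates used complexes. STX1A, syntaxin 1A, measured 49.99, 52.4, 55.5, 59.3 and 44.2 CPM in follicular libraries 1 to 5 and 50.6, 44.2, 42.0, 50.2 and 39.5 CPM in luteal libraries 1 to 5. The phases overlapped, with luteal 1 and 4 inside the follicular range and follicular 5 level with luteal 2. Its means were 52.3 ± 5.70 CPM over the follicular mixes and 45.3 ± 4.99 CPM over the luteal mixes (± SD, 5 mixes each; fitted log2 fold change -0.21, SE 0.11, 95% interval -0.44 to 0.03, edgeR unadjusted p = 0.0849; adjusted p = 0.432).

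SNAP25 had the widest range within a phase of all 36 genes, 2.69-fold among follicular libraries, from 85.1 CPM in follicular 3 to 229 CPM in follicular 5, against 139 to 208.5 CPM in luteal libraries. Its fitted log2 fold change was 0.30 with a 95% interval of -0.26 to 0.86, and without follicular 5 it was 0.54, with an unadjusted p under 0.05, as for 17.9% of all genes in that direction. It was -0.0040 when the ribosomal protein share was a covariate (edgeR adjusted p = 0.996). VAMP2 ran from 551 to 679.9 CPM among follicular mixes and 493 to 651 CPM among luteal mixes (log2 fold change -0.13, 95% interval -0.36 to 0.09). VAMP1 ran from 63.4 to 82.6 CPM among follicular mixes and 44.7 to 89.4 CPM among luteal mixes (log2 fold change -0.18, 95% interval -0.54 to 0.18). VAMP1 overlaps TAPBPL in the RefSeq gene table, and TAPBPL held 27083 reads over all libraries against 21375 for VAMP1, so the value of VAMP1 is uncertain where reads of the pair were not separated. NSF had a log2 fold change of 0.11 (95% interval -0.27 to 0.49) and NAPB of -0.10 (95% interval -0.35 to 0.16). The intervals of SNAP25, STX1A, VAMP1 and NSF still allowed differences larger than the one fitted for CPLX1.

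Among the priming factors, UNC13A averaged lower in luteal libraries and CADPS higher. Munc13 proteins, encoded by UNC13A and UNC13B, open syntaxin so that SNARE complexes can form. UNC13A, or Munc13-1, measured 177, 147, 172, 164 and 133 CPM in follicular libraries 1 to 5 and 119.8, 132, 139, 139 and 149 CPM in luteal libraries 1 to 5. The highest luteal library, luteal 5, exceeded follicular 2 and 5, and the other luteal libraries lay below follicular 1 to 4. Its means were 159 ± 18.2 CPM over the follicular mixes and 136 ± 10.9 CPM over the luteal mixes (± SD, 5 mixes each; fitted log2 fold change -0.23, SE 0.10, 95% interval -0.45 to -0.0026, edgeR unadjusted p = 0.0478; adjusted p = 0.426). With the ribosomal protein share as a covariate the value was -0.14 (edgeR adjusted p = 0.715). UNC13B, or Munc13-2, measured 45.2, 57.1, 50.6, 55.4 and 61.8 CPM in follicular libraries 1 to 5 and 43.0, 49.99, 57.5, 58.5 and 57.2 CPM in luteal libraries 1 to 5. The phases overlapped almost entirely, with luteal 1 the lowest and follicular 5 the highest (log2 fold change -0.02, 95% interval -0.28 to 0.23).

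CADPS and CADPS2 encode CAPS proteins, which prime dense-core vesicles. CADPS measured 75.6, 94.3, 61.5, 76.0 and 124 CPM in follicular libraries 1 to 5 and 83.2, 109, 136, 92.2 and 133 CPM in luteal libraries 1 to 5. Follicular 5 stood with the upper luteal libraries, and the other 4 follicular libraries reached at most 94.3 CPM. Its means were 86.3 ± 24.2 CPM over the follicular mixes and 111 ± 23.7 CPM over the luteal mixes (± SD, 5 mixes each; fitted log2 fold change 0.36, SE 0.20, 95% interval -0.07 to 0.79, edgeR unadjusted p = 0.0931; adjusted p = 0.433). CADPS2 had the same direction (log2 fold change 0.16, 95% interval -0.23 to 0.56). Without follicular 5 the log2 fold changes of CADPS and CADPS2 were 0.53 and 0.35, both with an unadjusted edgeR p under 0.05, as for 17.9% of all genes in that direction, and neither passed after adjustment (adjusted p = 0.0682 and 0.0992). Fits with the ribosomal protein share gave 0.09 for CADPS and -0.05 for CADPS2, and fits with the first principal component gave 0.0069 and -0.10 (edgeR adjusted p from 0.831 to 0.985).

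Of the calcium sensors and Rab effectors, SYT5 and RPH3A averaged lower in luteal libraries. Synaptotagmins are membrane proteins with C2 domains, which bind calcium in many of them. SYT1 and SYT2 drive fast release, and SYT7 slow release and facilitation. SYT4 sits on dense-core vesicles and does not bind calcium in the usual way. SYT5 (gene identifier 101122301) measured 373, 398, 494, 405 and 266 CPM in follicular libraries 1 to 5 and 271, 249, 219, 333 and 233 CPM in luteal libraries 1 to 5. Follicular 3 was the highest, and follicular 5 was the one follicular library inside the luteal range, below luteal 1 and 4. The means were 387 ± 81.7 CPM over the follicular mixes and 261 ± 44.5 CPM over the luteal mixes (± SD, 5 mixes each; fitted log2 fold change -0.57, SE 0.16, 95% interval -0.93 to -0.21, edgeR unadjusted p = 0.00462; adjusted p = 0.426). With the ribosomal protein share as a covariate the log2 fold change was -0.35 (edgeR adjusted p = 0.400), and with the first principal component -0.30 (edgeR adjusted p = 0.509).

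RPH3A, rabphilin 3A, which binds Rab3 on vesicles and has C2 domains of its own, measured 41.6, 52.3, 38.1, 44.0 and 56.0 CPM in follicular libraries 1 to 5 and 40.9, 39.5, 35.8, 38.4 and 37.5 CPM in luteal libraries 1 to 5. Luteal libraries were close together, follicular 2 and 5 were the 2 highest, and follicular 1, 3 and 4 ranged from 38.1 CPM, inside the luteal values, upward. The means were 46.4 ± 7.51 CPM over the follicular mixes and 38.4 ± 1.95 CPM over the luteal mixes (± SD, 5 mixes each; fitted log2 fold change -0.27, SE 0.12, 95% interval -0.53 to -0.02, edgeR unadjusted p = 0.0360; adjusted p = 0.426). DOC2A, a sensor of asynchronous and spontaneous release, measured 14.5, 15.8, 17.2, 17.5 and 15.5 CPM in follicular libraries 1 to 5 and 20.4, 11.2, 13.1, 10.9 and 9.58 CPM in luteal libraries 1 to 5. Follicular libraries were close together, and luteal 1 was above them all while the other 4 luteal libraries were below them all. Its means were 16.1 ± 1.24 CPM over the follicular mixes and 13.1 ± 4.33 CPM over the luteal mixes (± SD, 5 mixes each; fitted log2 fold change -0.30, SE 0.19, 95% interval -0.72 to 0.12, edgeR unadjusted p = 0.144; adjusted p = 0.457). DOC2A overlaps INO80E in the RefSeq gene table, and INO80E held 29058 reads against 4745 for DOC2A, so its value is uncertain.

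The main fast sensors, SYT1 and SYT2, had no unadjusted p under 0.05. SYT1 ran from 70.5 to 114 CPM among follicular mixes and 74.4 to 109 CPM among luteal mixes (log2 fold change 0.09, 95% interval -0.26 to 0.43). SYT2 ran from 4.03 to 8.77 CPM among follicular mixes and 5.57 to 6.73 CPM among luteal mixes (log2 fold change -0.24, 95% interval -0.68 to 0.20). Follicular 5 was the lowest library of all in SYT2 and the highest of all in SYT1. SYT4 (log2 fold change 0.09) and SYT7 (-0.07) had 95% intervals of -0.31 to 0.49 and -0.36 to 0.21.

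Of the 8 vesicle proteins only synaptophysin had an unadjusted p under 0.05 in the fit of phase alone. SYP, an abundant membrane protein of small vesicles that binds VAMP2, measured 666, 564, 699.6, 627 and 463 CPM in follicular libraries 1 to 5 and 575, 482, 437, 542 and 392 CPM in luteal libraries 1 to 5. Follicular 1, 3 and 4 lay above all luteal libraries, follicular 2 was below luteal 1, and follicular 5 was below luteal 1, 2 and 4. The means were 604 ± 93.7 CPM over the follicular mixes and 485 ± 74.9 CPM over the luteal mixes (± SD, 5 mixes each; fitted log2 fold change -0.32, SE 0.14, 95% interval -0.62 to -0.01, edgeR unadjusted p = 0.0451; adjusted p = 0.426). With the ribosomal protein share as a covariate its log2 fold change was -0.12 (edgeR adjusted p = 0.688), and with the first principal component -0.07 (edgeR adjusted p = 0.789).

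None of the other 7 vesicle genes had an unadjusted p under 0.05 in the fit of phase alone. With the ribosomal protein share as a covariate, SV2C (log2 fold change -0.46) and SYN2 (-0.25) were lower at an unadjusted edgeR p under 0.05. The same held with the first principal component (-0.48 and -0.25). Of all genes, 3.58% and 3.3% were lower at that level in these 2 fits, and neither gene passed after adjustment. The SV2 proteins are transporter-like glycoproteins of the vesicle membrane. SV2A had a log2 fold change of -0.06 (95% interval -0.28 to 0.15), SV2B of 0.06 (-0.20 to 0.31) and SV2C of -0.22 (-0.65 to 0.22). SYNGR1, synaptogyrin 1, had the smallest spread of all 36 genes among follicular libraries (CV 3.11%), with 244 ± 7.59 CPM over the follicular mixes and 239 ± 21.1 CPM over the luteal mixes (± SD, 5 mixes each; fitted log2 fold change -0.03, 95% interval -0.22 to 0.16). RAB3A, the small GTPase of the vesicle surface, had 258 ± 16.9 CPM over the follicular mixes and 261 ± 37.9 CPM over the luteal mixes (± SD, 5 mixes each; fitted log2 fold change 0.02, 95% interval -0.22 to 0.26). For SYNGR1 and RAB3A the intervals excluded a luteal level as low as the one fitted for CPLX2. SYN2, synapsin 2, which tethers the vesicle reserve to actin, had a log2 fold change of -0.10 (95% interval -0.41 to 0.21) and overlaps TIMP4 in the RefSeq gene table, which held 2030 reads against 8342. SNAP91, the clathrin adaptor AP180 that retrieves VAMP2 after fusion, averaged higher in luteal libraries (log2 fold change 0.25, 95% interval -0.12 to 0.62).

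In the active zone, both RIM-binding proteins averaged higher in luteal libraries. RIM-binding proteins tie calcium channels to the RIM scaffold, and TSPOAP1 encodes RIM-binding protein 1 (gene identifier 101104839). TSPOAP1 measured 96.0, 95.3, 103, 102 and 93.4 CPM in follicular libraries 1 to 5 and 123, 131, 116, 117 and 122 CPM in luteal libraries 1 to 5. The phases did not overlap, and both were narrow, with CVs of 4.23% and 4.82%. The means were 97.8 ± 4.14 CPM over the follicular mixes and 122 ± 5.86 CPM over the luteal mixes (± SD, 5 mixes each; fitted log2 fold change 0.31, SE 0.08, 95% interval 0.15 to 0.48, edgeR unadjusted p = 0.00146; adjusted p = 0.426), a fitted level 24.3% higher in luteal libraries. The DESeq2 adjusted p was 0.00727. Leaving out each library gave log2 fold changes from 0.29 to 0.34 (edgeR), and with the ribosomal protein share as a covariate the value was 0.34 (edgeR adjusted p = 0.237).

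RIMBP2, RIM-binding protein 2, measured 39.6, 53.5, 29.7, 42.6 and 65.2 CPM in follicular libraries 1 to 5 and 42.0, 56.9, 76.4, 51.2 and 82.7 CPM in luteal libraries 1 to 5. Luteal 3 and 5 were the 2 highest, with follicular 5 next to them, and follicular 3 was the lowest. Its means were 46.1 ± 13.6 CPM over the follicular mixes and 61.8 ± 17.2 CPM over the luteal mixes (± SD, 5 mixes each; fitted log2 fold change 0.42, SE 0.23, 95% interval -0.08 to 0.92, edgeR unadjusted p = 0.0904; adjusted p = 0.432). The log2 fold change of RIMBP2 was 0.10 with the ribosomal protein share as a covariate, and with the first principal component 0.00038 (edgeR adjusted p = 0.869 and 0.999). ERC1, a scaffold of the ELKS family, had the largest p of the 36 and measured 60.6, 56.6, 58.2, 65.8 and 56.2 CPM in follicular libraries 1 to 5 and 52.6, 60.1, 54.6, 71.2 and 61.5 CPM in luteal libraries 1 to 5. The follicular libraries lay inside the luteal range (log2 fold change 0.01, 95% interval -0.21 to 0.23). ERC2, its neuronal relative, had a log2 fold change of 0.15 (-0.25 to 0.55). The RIM scaffolds that recruit Munc13 and calcium channels had -0.03 for RIMS1 (-0.34 to 0.29) and -0.07 for RIMS2 (-0.52 to 0.39). The giant scaffolds that mark the active zone had -0.06 for bassoon, BSN (-0.26 to 0.13), and 0.16 for piccolo, PCLO (-0.38 to 0.71). The interval of BSN was among the narrowest of the 36, and that of PCLO among the widest.

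The 36 genes did not move as a block across libraries. Follicular 5 was the highest or the lowest follicular library for 30 of the 36 (highest for 17 and lowest for 13, together 83.3%, against 70.4% of all genes tested). It was lowest for 5 of the 7 genes that averaged lower in luteal libraries at an unadjusted p under 0.05, and highest for the remaining 2, CPLX3 and RPH3A. The unadjusted edgeR p of RPH3A was 0.05 or more without any one of follicular 2 or 5 or luteal 2 to 5, that of SYP without any one of follicular 1 to 4 or luteal 2, 3 or 5, and that of UNC13A without any one of follicular 1 to 4 or luteal 1 to 4. Luteal 4 was the highest luteal library for 4 of these 7, the complexins and SYT5, and the lowest luteal library for 15 of the 36. It was the highest or the lowest luteal library for 58.3% of the 36, against 47.8% of all genes tested. Ordered by ribosomal protein share, CPLX1, SYT5 and SYP were high in follicular 1, 3 and 4, which had the largest shares, and low in follicular 5 and luteal 3 and 5, which had the smallest. SNAP25, RIMBP2, CADPS, SNAP91 and NSF ran the other way. CPLX3, RPH3A and TSPOAP1 showed little of either order. With the share as a covariate, NSF had a log2 fold change of -0.12 (edgeR adjusted p = 0.763).

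**Figure D3:**
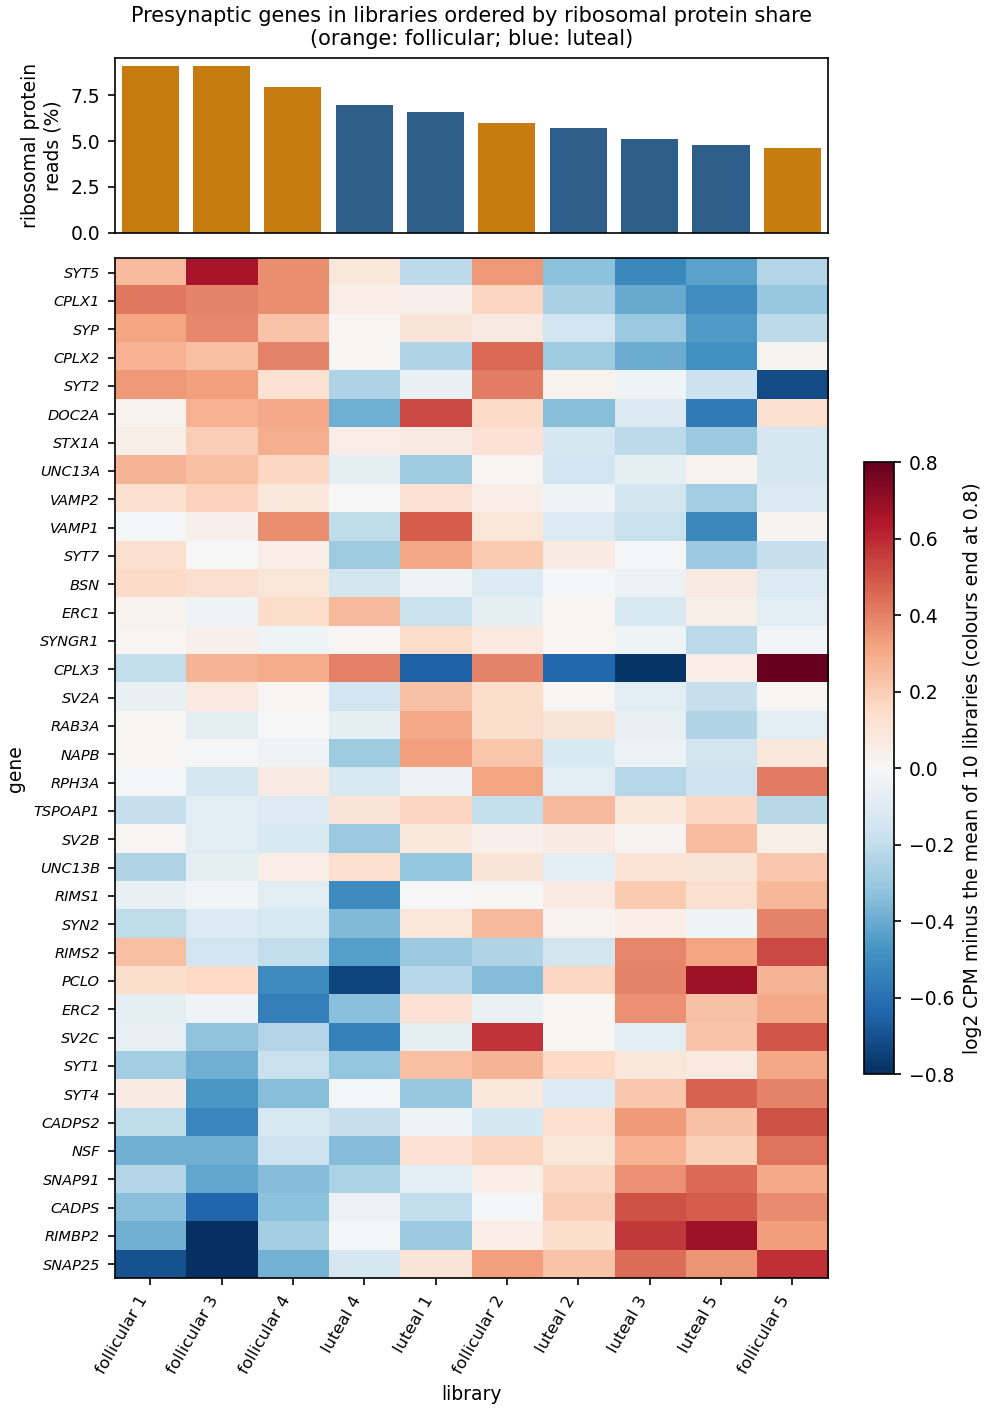
Upper panel, percent of reads on ribosomal protein genes in each library, from the largest share to the smallest; lower panel, log2 CPM of each gene minus its mean over the 10 libraries, with genes sorted by their slope on that share and colours ending at 0.8 in either direction. SYT5, CPLX1 and SYP change from high to low along the order and SNAP25, RIMBP2 and CADPS from low to high, with follicular 5, whose share was 4.63%, at the luteal end.

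Ratios of related genes within a library do not depend on how libraries are scaled, and 12 pairs were compared. None passed the test of a difference between phases (exact permutation tests, two-sided, adjusted p from 0.783 to 1 over the 12 pairs, n = 5 per phase). The smallest p possible is 0.00794, and a pair at that value passes the adjustment only where other pairs also have a small p. The reads of CPLX2 per read of CPLX1 were 1.441, 1.93, 1.43, 1.611 and 1.995 in follicular libraries 1 to 5 and 1.308, 1.561, 1.595, 1.54 and 1.605 in luteal libraries 1 to 5. The phases overlapped, and follicular 1 and 3 were below 4 of the 5 luteal libraries (luteal minus follicular -0.13 on the log2 scale; exact permutation test, p = 0.278, n = 5 per phase). The reads of UNC13A per read of UNC13B were 2.16 to 3.91 in follicular and 2.38 to 2.79 in luteal libraries (-0.20 on the log2 scale; exact permutation test, p = 0.246, n = 5 per phase). The reads of CADPS per read of CADPS2 gave the smallest p, with 3.21 to 4.02 in follicular and 3.28 to 4.37 in luteal libraries (0.18 on the log2 scale; exact permutation test, p = 0.111, n = 5 per phase). SYT1 per SYT2 was 8.49 to 12.6 in follicular 1 to 4, 28.3 in follicular 5 and 13.3 to 17.1 in luteal libraries. These are ratios of reads, not of transcript numbers, since the genes differ in length.

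Other genes of the synapse were read in the same fit by lists of their own, and 0 genes of any list passed after adjustment. For every list here and in the next paragraph, the shares over all genes tested stand beside the counts. At an unadjusted edgeR p under 0.05, 7.12% were lower and 4.27% higher. A fitted value below 0 was found for 48.5%, and luteal values wholly below the follicular ones for 0.514%. Of 41 other release genes 17 were lower and 24 higher (median log2 fold change 0.06), and 2 were lower at an unadjusted edgeR p under 0.05. Those were RIMS4, a short RIM relative (log2 fold change -0.28, SE 0.09), whose luteal libraries all lay below the follicular ones (26.6 to 32.4 CPM against 33.1 to 36.6 CPM), and the synapsin SYN3 (-0.77, SE 0.31). Of 21 genes of vesicle endocytosis 2 were lower at that level, the clathrin adaptor subunit AP2S1 (-0.67, SE 0.26) and the clathrin light chain CLTB (-0.51, SE 0.22), and the median was 0.03. Of 16 genes of the proton pump that energises vesicle filling 3 were lower, the subunits ATP6V0D1 (-0.37, SE 0.15), ATP6V1F (-0.40, SE 0.17) and ATP6V1E1 (-0.35, SE 0.15), and the median was -0.00035.

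Of the 7 transporters that load vesicles with transmitter 0 had an unadjusted edgeR p under 0.05 in either direction (median log2 fold change -0.04). Among 9 presynaptic calcium channel subunits 8 were higher and 1 lower, with a median of 0.13. The auxiliary subunits CACNB2 (log2 fold change 0.46, SE 0.16) and CACNB1 (-0.31, SE 0.11) had an unadjusted edgeR p under 0.05 in opposite directions. Of 16 adhesion proteins such as neurexins and neuroligins 0 had such a p (median 0.04). On the postsynaptic side 1 of 17 scaffold genes was lower, DLGAP3 (-0.33, SE 0.14), with a median of -0.02.

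**Figure D4:**
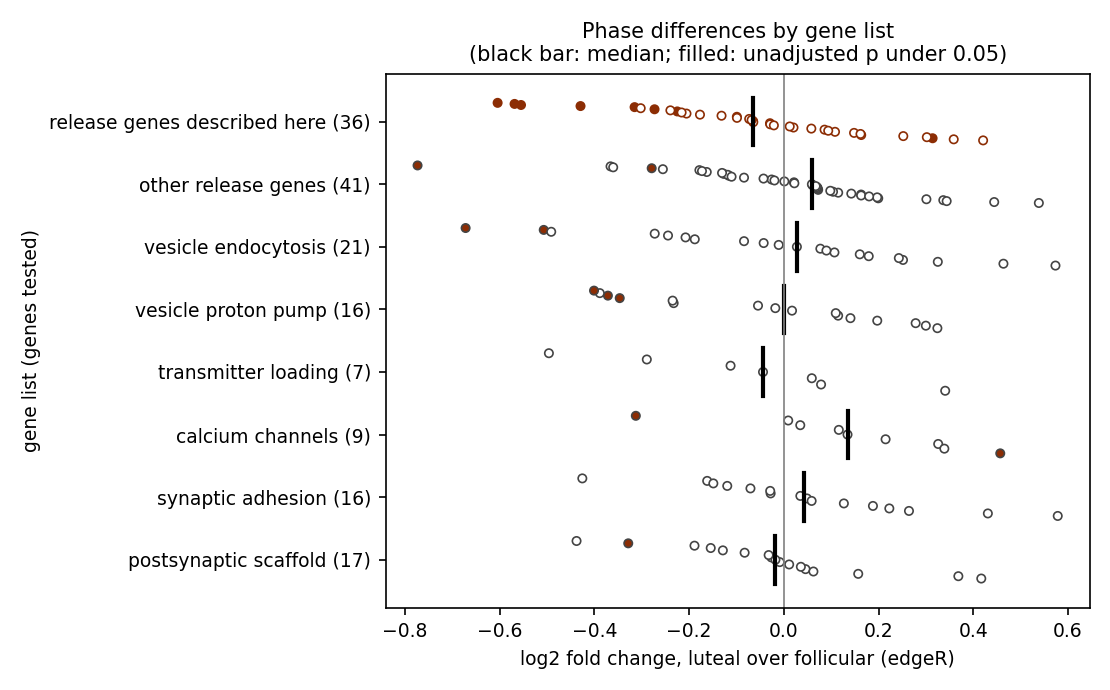
Log2 fold change of luteal over follicular phase for each gene tested in the 36 release genes and 7 other synaptic lists; each point is a gene, the black bar is the list's median, and filled points had an unadjusted p under 0.05. The medians lie between -0.06 and 0.13, and the 36 release genes hold 7 filled points below 0 and 1 above.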

How the data were processed

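Per the series' design text and the labels, RNA of mediobasal hypothalamus from 20 ewes was extracted, mixed by 2 within a phase and made into TruSeq stranded mRNA libraries. Tools listed, without roles, in the submitters' processing notes are featureCounts 2.0.0, SAMtools 1.9, Bowtie2 2.3.5.1, TopHat2 2.1.1, FastQC and bcl2fastq 2.20. Not given in the sources used here are the strand setting, filters and genome build. The authors deposited raw read counts per gene in 1 table of 10 libraries. Gene identifiers were matched to ARS-UI_Ramb_v3.0 for names and overlaps only (94.4% matched, all 36 members among them).

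The test was edgeR 4.0.16 (quasi-likelihood, two-sided, R 4.3.3) with all 10 libraries in 1 model of phase alone, TMM scaling and filterByExpr (minimum count 10, minimum total 15), adjusted by Benjamini-Hochberg over 18276 genes, threshold 0.05. Totals of 20644992 to 43193449 reads gave each member at least 156 reads a library, and the biological coefficient of variation was 25.1%, so the spread between mixes of ewes limits precision more than counting does. Alternatives were RLE and upper-quartile scaling, 2 other filters, the replicate number as a block, leaving out libraries, DESeq2 1.42.0 (independent filtering at 0.05), limma-voom (limma 3.58.1) with and without quality weights, robust dispersion, and 2 covariates. No pair of the 45 agreed within sampling noise (lowest chi-square per degree of freedom 12.8).

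Values by library are given for the complexins, the 12 genes with the smallest p and the 2 with the largest, and list genes are drawn from the 3 with the smallest p. Members and lists were chosen with earlier results of these data known. Marker lists had no calls.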

Additional observations from a re-analysis of the deposited data

Results flagged for a closer look

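A value counts as standing apart when the distance to its neighbour in the same phase, as a part of the whole range there, exceeds the 95% critical value of Dixon. This was looked at in 78 groups of 5 libraries (36 genes and 3 library measures in 2 phases), where chance gives about 1 in 20, or 3.9, and it happened in 2. VAMP1, a vesicle SNARE, was at 82.6 CPM in follicular 4, with the nearest follicular library at 68.3 CPM. RIMS1, an active zone scaffold, was at 20.4 CPM in follicular 5, with the nearest follicular library at 17.1 CPM. Neither gene passed the edgeR test between phases (adjusted p = 0.573 and 0.925), and no library measure had such a value.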

How the results depend on the processing

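The 8 genes with an unadjusted p under 0.05 (the 3 complexins, SYT5, RPH3A, SYP, UNC13A and TSPOAP1) had the same direction under every alternative run, but not the same size. In the fit with the first principal component and in the fit that left out follicular 1 and 3, 4 of the 7 lower genes (CPLX2, CPLX3, SYT5 and RPH3A) had an unadjusted p under 0.05. Calls after adjustment over all genes were 0 with edgeR, 35 with DESeq2, 5867 with voom and quality weights (8 of the 36 lower and 5 higher, against 16.8% and 15.3% of genes), 0 with plain limma-voom and 0 to 1 when leaving out single libraries; the 1, without luteal 4, was not among the 36. Shares of all genes follow each count of the 36. Lower at an unadjusted p were 7 (7.12%), and 3 to 8 when leaving out single libraries: 3 without follicular 2 (7.01%), luteal 2 (3.4%) or luteal 3 (2.94%) and 8 without luteal 1 (10.4%). They were 4 (1.47%) without follicular 1 and 3 together, 6 (12.6%) with the replicate block and 10 (22.6%) with quality weights. Higher were 1 (4.27%), and 1 to 6: 6 without follicular 5 (17.9%) and 3 without luteal 1 (6.44%). They were 3 (12.1%) with the replicate block and 8 (23.1%) with quality weights. Genes whose phases did not overlap numbered 2, and 2 to 5: without follicular 5 there were 4 lower (3.97%) and 1 higher (3.87%), and without luteal 1 there were 4 lower (1.72%) and 1 higher (1.57%). Library measures past the threshold numbered 0, and 0 to 3; pairs past it stayed at 0, including the exact paired test by replicate number, which cannot go below p = 0.0625.

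The replicate numbers name random mixes of ewes and so pair no animals. Same-numbered libraries correlated at 0.36, 0.05, -0.33, 0.28 and 0.63 in their deviations from the phase mean. For 1 number the libraries correlated best with each other both ways. Whether same-numbered libraries shared a processing step was not tested. Over all genes the replicate block moved the counts at an unadjusted p from 1302 to 2297 lower and from 781 to 2215 higher, and the smallest edgeR adjusted p was 0.0520.

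Fitted values of up to 0.30 in size (SNAP25) changed sign. With follicular 1 and 3 left out these were SNAP25 (-0.014), NSF (-0.083), SYT1 (-0.081) and BSN (0.014), with quality weights SV2C (0.020), SYN2 (0.053), RIMS1 (0.070), RIMS2 (0.0036) and ERC1 (-0.052), with the first principal component SNAP25 (-0.061), NSF (-0.14), CADPS2 (-0.10), SYT1 (-0.082), SYT2 (0.0034), SYT4 (-0.19), SYT7 (0.028), SV2B (-0.022), SYNGR1 (0.023), SNAP91 (-0.045), PCLO (-0.12) and ERC2 (-0.031), and with the ribosomal share SNAP25 (-0.0040), NSF (-0.12), CADPS2 (-0.052), SYT1 (-0.079), SYT4 (-0.12), SV2B (-0.015), SYNGR1 (0.0018), PCLO (-0.046) and ERC2 (-0.0048). Leaving out single libraries did so for UNC13B (-0.074 to 0.047), SYT4 (-0.023 to 0.22), SYNGR1 (-0.071 to 0.020), RAB3A (-0.060 to 0.081), RIMS1 (-0.081 to 0.073), RIMS2 (-0.18 to 0.078), PCLO (-0.011 to 0.32) and ERC1 (-0.057 to 0.056). Log2 ratios that changed sign were, without follicular 1 and 3, UNC13A/UNC13B (0.0090), SYT1/SYT2 (-0.045), SYT4/SYT1 (0.087), RIMS1/RIMS2 (-0.017) and RIMBP2/TSPOAP1 (-0.15), and without single libraries SYT4/SYT1 (-0.10 to 0.14), RIMS1/RIMS2 (-0.042 to 0.096), ERC2/ERC1 (-0.0048 to 0.32) and RIMBP2/TSPOAP1 (-0.049 to 0.27). The cause was not tested.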
